A study of Rattus norvegicus with 8 samples.

Results

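All 8 arrays of the series were used to compare the oesophagus of rats on a riboflavin-deficient diet (R0N+) with that of rats on a diet with normal riboflavin (RcN+), over epithelial neoplasia and adjacent normal tissue together. The arrays came from 4 animals, 2 per diet, and each animal gave 1 array of neoplasia and 1 array of adjacent normal tissue, so the animal was the replicate. Every rat of both diets had been injected subcutaneously with the oesophageal carcinogen N-nitrosomethylbenzylamine (NMBA) at 0.35 mg/kg, 3 times a week over 5 weeks, and all were killed at week 25. RNA came from oesophagus fixed in paraformaldehyde and kept in paraffin. No rat without NMBA was used here, so the comparison is of diet in carcinogen-treated animals, and the labels gave neither the age nor the strain. Of 22093 genes measured, 13057 differed by diet in a single direction in both tissues. Of these, 7444 genes (33.7% of all genes) were higher on R0N+ and 5613 (25.4%) were lower. The remaining 9036 had opposite signs in the tissues or a difference of 0 in one of them.

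Riboflavin, vitamin B2, enters cells through the Slc52a transporters, is phosphorylated by riboflavin kinase (Rfk) to flavin mononucleotide and is then converted to flavin adenine dinucleotide. Both flavins are cofactors of oxidoreductases in the respiratory chain, fatty acid oxidation, folate metabolism, glutathione reduction and oxidative protein folding. The oesophagus of the rat is lined by a keratinised squamous epithelium over a muscle coat that is largely striated, and NMBA induces squamous tumours in it. The series' title names genes linked to inflammation as the subject of the study.

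No gene passed the test of diet. The limma fit on the mean of both tissues per animal, 2 R0N+ animals against 2 RcN+ animals, called 0 of 22093 genes (0.0%) at a Benjamini-Hochberg adjusted p under 0.05. The lowest adjusted p from limma was 0.887, and an unadjusted p under 0.05 was met by 346 genes that were higher (1.57%) and 494 that were lower (2.24%), 3.8% of genes in all. An exact two-sided permutation test of 2 animals against 2 cannot go below p = 0.333. Every difference below is therefore a described value on the log2 scale, R0N+ minus RcN+, with the standard error of the limma fit, and none is a call. The labels identify animals through a code shared by the tissues of a pair, and do not say whether animals were housed or processed together.

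Array quality varied before any gene was considered, and it differed between the diets in neoplasia. Separation of 399 positive from 1153 negative control probe sets, as an area under the curve, ran from 0.598 to 0.659 on R0N+ arrays and from 0.577 to 0.757 on RcN+ arrays. In neoplasia it was 0.617 and 0.6 on R0N+ arrays, against 0.696 and 0.694 on RcN+ arrays. Averaged per animal it was 0.638 and 0.599 on R0N+, against 0.636 and 0.726 on RcN+, so the animals of the diets overlapped. Both extremes were RcN+ adjacent normal arrays, with replicate 1 the lowest and replicate 2 the highest of the 8. RcN+ adjacent normal replicate 2 also stood apart by 468 probe sets at the ceiling of the deposited scale, against 1479 to 1748 on the other 7 arrays, so medians of gene lists are also given without its animal. Markers of squamous epithelium had median levels of 9.6 to 11.98 on R0N+ arrays and 8.66 to 15.77 on RcN+ arrays, all above the median of the gene table, 5.11. Skeletal muscle markers were at 11.27 to 14.29 on R0N+ arrays and 12.46 to 15.47 on RcN+ arrays, including those labelled epithelial neoplasia.

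The size and sign of the diet difference followed the level of the gene. With genes split into 5 groups of equal size by their mean over all 8 arrays, the median difference was 0.09 in the dimmest group, then 0.08, 0.04 and -0.04, and -0.24 in the brightest group. The median over all genes was 0.02, with 54.2% of genes higher and 45.8% lower in the mean over both tissues. In the brightest group 52.8% of genes were lower on R0N+ in both tissues, against 9.19% in the dimmest group. A gene was called separated when both R0N+ arrays of a tissue lay beyond both RcN+ arrays of that tissue, in the same direction in both tissues. This held for 752 higher genes (3.4%) and 537 lower genes (2.43%), while 663 genes (3.0%) were separated in opposite directions in the tissues. The balance of the sides turned with the scaling, to 603 higher and 670 lower genes after quantile and 588 and 667 after cyclic loess normalisation. Among the dimmest genes 6.38% were separated and higher and 0.566% separated and lower, and among the brightest genes these shares were 0.679% and 4.59%. The part of control separation and signal range in this pattern was not tested.

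**Figure D1:**
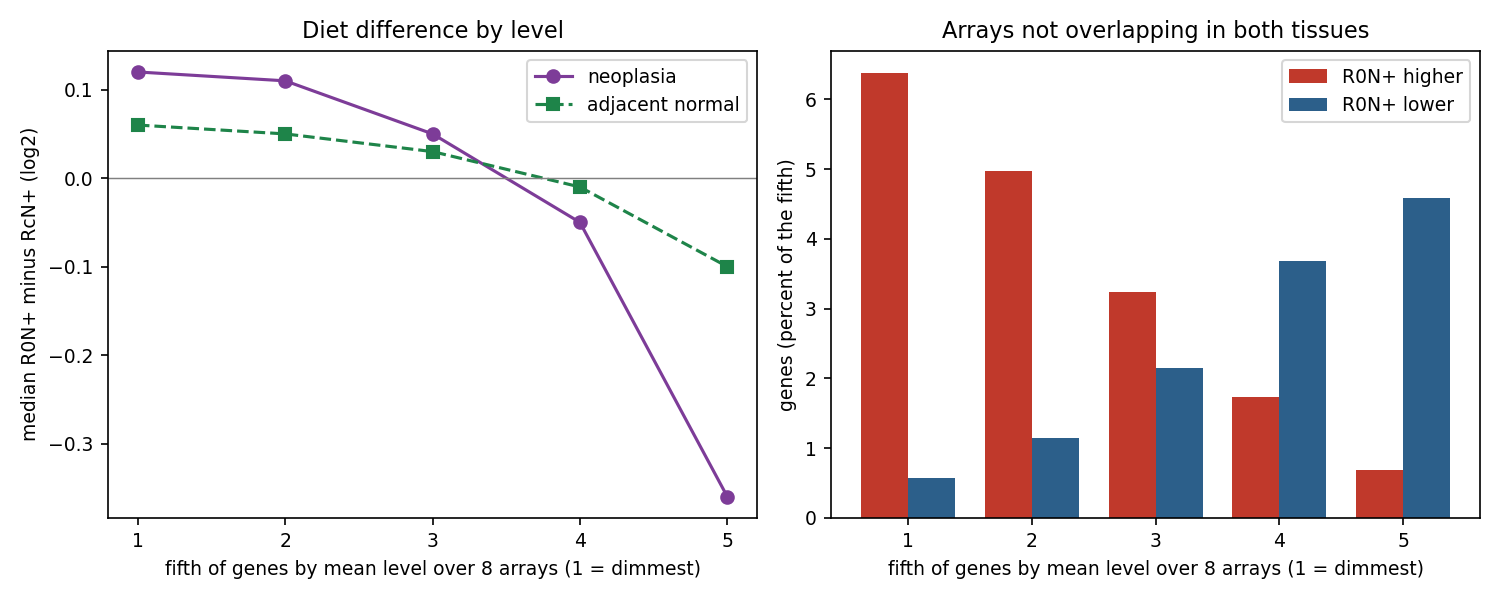
Left, the median R0N+ minus RcN+ difference (log2) of genes in 5 equal groups by mean level, in neoplasia (purple circles) and adjacent normal tissue (green squares). Right, the percentage of each group whose arrays were separated in both tissues, higher (red) or lower (blue) on R0N+, where the higher share is 6.38% in the dimmest group and 0.679% in the brightest.

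Genes of the miRNA class were on the higher side, including those at moderate levels. miRNAs are short RNAs that pair through their seed, bases 2 to 8, with target mRNAs and lower their output. The probe sets report transcript of the miRNA locus and cannot tell hairpin from mature arms. Among 371 miRNA genes measured, 176 (47.4%) were higher on R0N+ in both tissues and 35 (9.43%) were lower, with a median difference of 0.16. Their median level was 4.75, in group 2 of the 5 from dim to bright. In that group 50.0% of all genes were higher and 10.7% lower in both tissues, with a median difference of 0.08. Of the 135 miRNA genes with a mean level at or above the median of the gene table, 67 were higher and 10 lower in both tissues, with a median of 0.22. Of these 135, 7 (5.2%, against 3.4% of all genes) were separated and higher and 0 separated and lower. The median of 0.22 was 0.04 without RcN+ replicate 2 and 0.02 with control separation as a covariate. These 7 genes were chosen after their values were seen. RefSeq (GRCr8) lists 12 mature sequences for them with 12 distinct seeds, so none share a seed. For 4 of them the arm most often studied is printed to show how the seeds differ, with the seed in capitals.
rno-miR-30c-5p: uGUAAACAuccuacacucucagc
rno-miR-139-5p: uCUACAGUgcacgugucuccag
rno-miR-20b-5p: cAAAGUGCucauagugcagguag
rno-miR-92a-3p: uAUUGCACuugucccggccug
The first lies at chr5:139634505-139634527 on the minus strand, the second at chr1:165290865-165290886 on the plus strand, the third at chrX:137343239-137343261 on the minus strand and the fourth at chr15:98588602-98588622 on the plus strand (GRCr8).

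Mir139 had levels of 8.16 and 8.19 on R0N+ neoplasia arrays, against 7.36 and 7.41 on RcN+ neoplasia arrays. Mir139 had 7.21 and 8.17 on R0N+ adjacent normal arrays, against 7.1 and 6.8 on RcN+ adjacent normal arrays. The tissues thus had the same direction, with a wide gap in neoplasia and a narrow one in adjacent normal tissue, and the mean difference was 0.77 (SE 0.20). Mir20b, the gene of a member of the same seed family as miR-20a, had 5.6 and 6.97 on R0N+ neoplasia arrays, against 4.87 and 4.6 on RcN+ neoplasia arrays. Mir20b had 5.76 and 6.52 on R0N+ adjacent normal arrays, against 5.47 and 4.09 on RcN+ adjacent normal arrays. The difference of Mir20b was 1.45 (SE 0.48), and its RcN+ adjacent normal arrays differed from each other by nearly as much. Mir30c1 differed by 0.68 (SE 0.14), but in neoplasia RcN+ replicate 2 at 8.51 lay just under the R0N+ arrays at 8.53 and 8.56. Mir92a1 differed by 0.51 (SE 0.11), Mir328b by 1.18 (SE 0.38), Mir345 by 0.30 (SE 0.11) and Mir6331 by 0.96 (SE 0.38). Under both other scalings and with the quality covariate the difference of each of the 7 was positive, with 0.22 for Mir345 as the smallest value. Their direction without a given animal is fixed by how they were chosen.

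**Figure D2:**
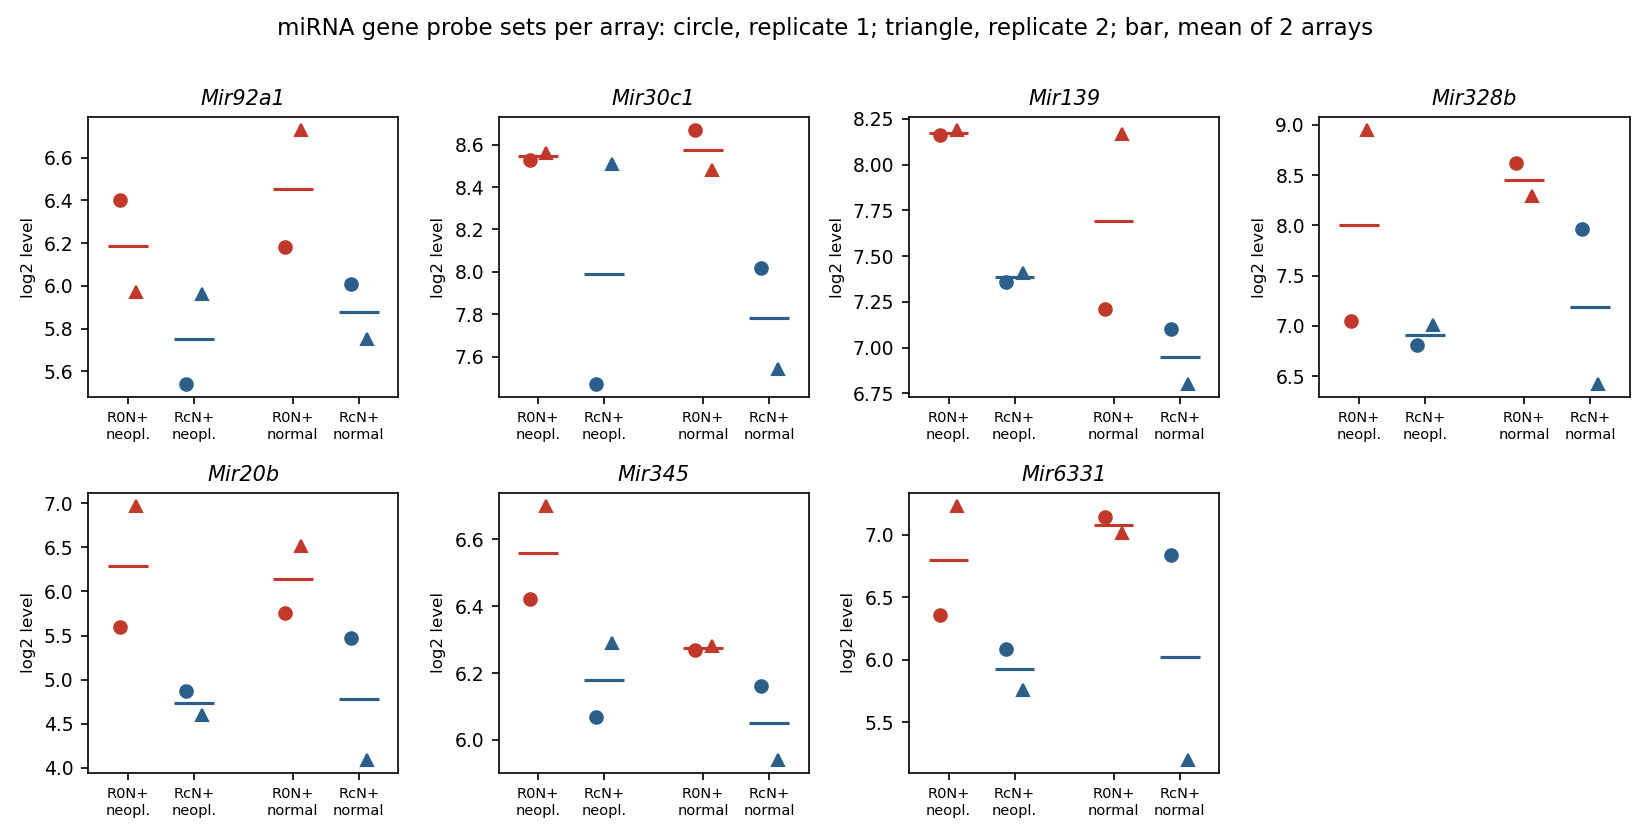
Level (log2) of the 7 miRNA gene probe sets on each array, R0N+ in red and RcN+ in blue within neoplasia and adjacent normal tissue, with circles for replicate 1, triangles for replicate 2 and a bar for the mean of 2 arrays. In every panel both R0N+ points of a tissue lie above both RcN+ points of that tissue, by the least in Mir92a1 and Mir30c1 in neoplasia.

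Other dim gene classes leaned the same way. Olfactory, vomeronasal and trace amine receptor genes, chemosensory genes of nasal tissue, had a median level of 4.71 and a median difference of 0.18, with 51.9% of 1217 genes higher in both tissues and 5.01% lower. Long noncoding RNA genes had a median of 0.14, with 51.0% of 888 genes higher in both tissues and 8.0% lower. The median level of both classes lay in group 2 of the 5 from dim to bright. In that group 50.0% of all genes were higher and 10.7% lower in both tissues. Protein-coding genes had 30.7% higher and 28.6% lower. The median of the receptor genes was -0.03 with control separation as a covariate and 0.02 without RcN+ replicate 2, where that of long noncoding RNA genes was 0.05.

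Named genes were those separated in both tissues, with a mean difference of at least 0.5 in each and a diet mean at or above the table median, a rule that 16 higher and 75 lower genes met. The 15 of lowest unadjusted p in each direction were named, which took nearly all of the 16 higher genes but a small part of the 75 lower ones. The unadjusted limma p thus reached 0.068 among the named higher genes and 0.00914 among the named lower genes. Krt10, a keratin of the suprabasal layers of keratinised epithelium, had 5.98 and 6.86 on R0N+ neoplasia arrays, against 5.65 and 5.45 on RcN+ neoplasia arrays. Krt10 had 6.76 and 5.48 on R0N+ adjacent normal arrays, against 5.26 and 5.42 on RcN+ adjacent normal arrays. Its averages per animal were 6.27 ± 0.14 on R0N+ and 5.45 ± 0.01 on RcN+ (SD, n = 2 each), a difference of 0.82 (SE 0.12), although in adjacent normal tissue R0N+ replicate 2 exceeded the nearer RcN+ array by little. Zfp347, a zinc finger gene, had 7.07 and 7.63 on R0N+ neoplasia arrays, against 6.62 and 6.67 on RcN+ neoplasia arrays. Zfp347 had 7.53 and 7.55 on R0N+ adjacent normal arrays, against 6.55 and 6.68 on RcN+ adjacent normal arrays. The diets did not come near each other in either tissue, and the difference of Zfp347 was 0.82 (SE 0.15).

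Gcsh encodes the H protein of the mitochondrial glycine cleavage system, which passes electrons to a flavoenzyme, dihydrolipoamide dehydrogenase. It had 7.27 and 6.4 on R0N+ neoplasia arrays, against 6.25 and 6.37 on RcN+ neoplasia arrays. Gcsh had 7.3 and 7.26 on R0N+ adjacent normal arrays, against 6.44 and 6.82 on RcN+ adjacent normal arrays. The difference was 0.59 (SE 0.21), with R0N+ neoplasia replicate 2 almost level with the higher RcN+ array. B3galt1, a galactosyltransferase, differed by 0.64 (SE 0.12), and Ly6g5b, a member of the Ly6 family, by 0.71 (SE 0.23). Another 6 of the 15 were olfactory or vomeronasal receptor genes (Or4l1, Or5d18, Or52n1, Or5ap2, Vom1r81 and Or9k2), with differences of 0.54 to 0.76. Uchl3-ps2, Glrx-ps4, ZNF69l and Tdpoz2l6 made up the rest, and as pseudogenes or members of gene families they may share probes with near copies.

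The differences of the 15 lower genes ran from -0.64 to -1.67, against 0.54 to 0.91 for the higher ones. Naa50, an N-terminal acetyltransferase, had 7.81 and 8.35 on R0N+ neoplasia arrays, against 9.53 and 10.2 on RcN+ neoplasia arrays. Naa50 had 9.13 and 8.21 on R0N+ adjacent normal arrays, against 9.57 and 10.48 on RcN+ adjacent normal arrays. Its averages were 8.37 ± 0.13 on R0N+ and 9.95 ± 0.56 on RcN+ (SD, n = 2 animals each), a difference of -1.57 (SE 0.30). Igfbp4, a secreted protein that binds insulin-like growth factors, had 6.03 and 6.14 on R0N+ neoplasia arrays, against 8.01 and 8.08 on RcN+ neoplasia arrays. Igfbp4 had 6.58 and 6.51 on R0N+ adjacent normal arrays, against 7.06 and 8.8 on RcN+ adjacent normal arrays. The replicates of a diet nearly coincided in neoplasia, and only the RcN+ adjacent normal arrays were far apart, which left a difference of -1.67 (SE 0.33). Without RcN+ replicate 2 it was -1.22.

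Polr2j, a subunit of RNA polymerase II, had 6.67 and 6.42 on R0N+ neoplasia arrays, against 7.81 and 7.18 on RcN+ neoplasia arrays. Polr2j had 6.78 and 6.77 on R0N+ adjacent normal arrays, against 7.1 and 7.59 on RcN+ adjacent normal arrays. Its difference was -0.76 (SE 0.11), with the lowest unadjusted p of the lower genes named, and it was -0.51 after quantile and -0.52 after cyclic loess normalisation and -0.58 with the quality covariate. Mrpl53, a protein of the mitochondrial ribosome, differed by -0.55 in neoplasia and -1.49 in adjacent normal tissue, with a mean of -1.02 (SE 0.16). Eif2s1, the alpha subunit of the translation initiation factor eIF2, differed by -0.71 (SE 0.14). Ube2d1, a ubiquitin-conjugating enzyme, differed by -0.89 (SE 0.15), and Mllt3, a chromatin reader of transcription elongation complexes, by -0.99 (SE 0.21).

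The 15 lower genes also held Cfl2, Ergic1, Surf2 and Rida. Cfl2, the muscle cofilin that severs actin filaments, differed by -1.04 (SE 0.18). Ergic1, a protein of the compartment between endoplasmic reticulum and Golgi, differed by -0.73 (SE 0.13). Surf2 had 6.09 and 6.36 on R0N+ neoplasia arrays, against 7.43 and 7.5 on RcN+ neoplasia arrays, and its mean difference was -1.13 (SE 0.22). Averaged over its 2 probe sets, Surf2 differed by -0.67. Rida, an enamine deaminase that clears reactive intermediates, differed by -0.84 (SE 0.17). Slc25a5-ps9, Hmgb1l3, Gapdhl10 and Uhmk1l1 carry symbols of gene copies, and their probes may detect the parent genes.

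**Figure D3:**
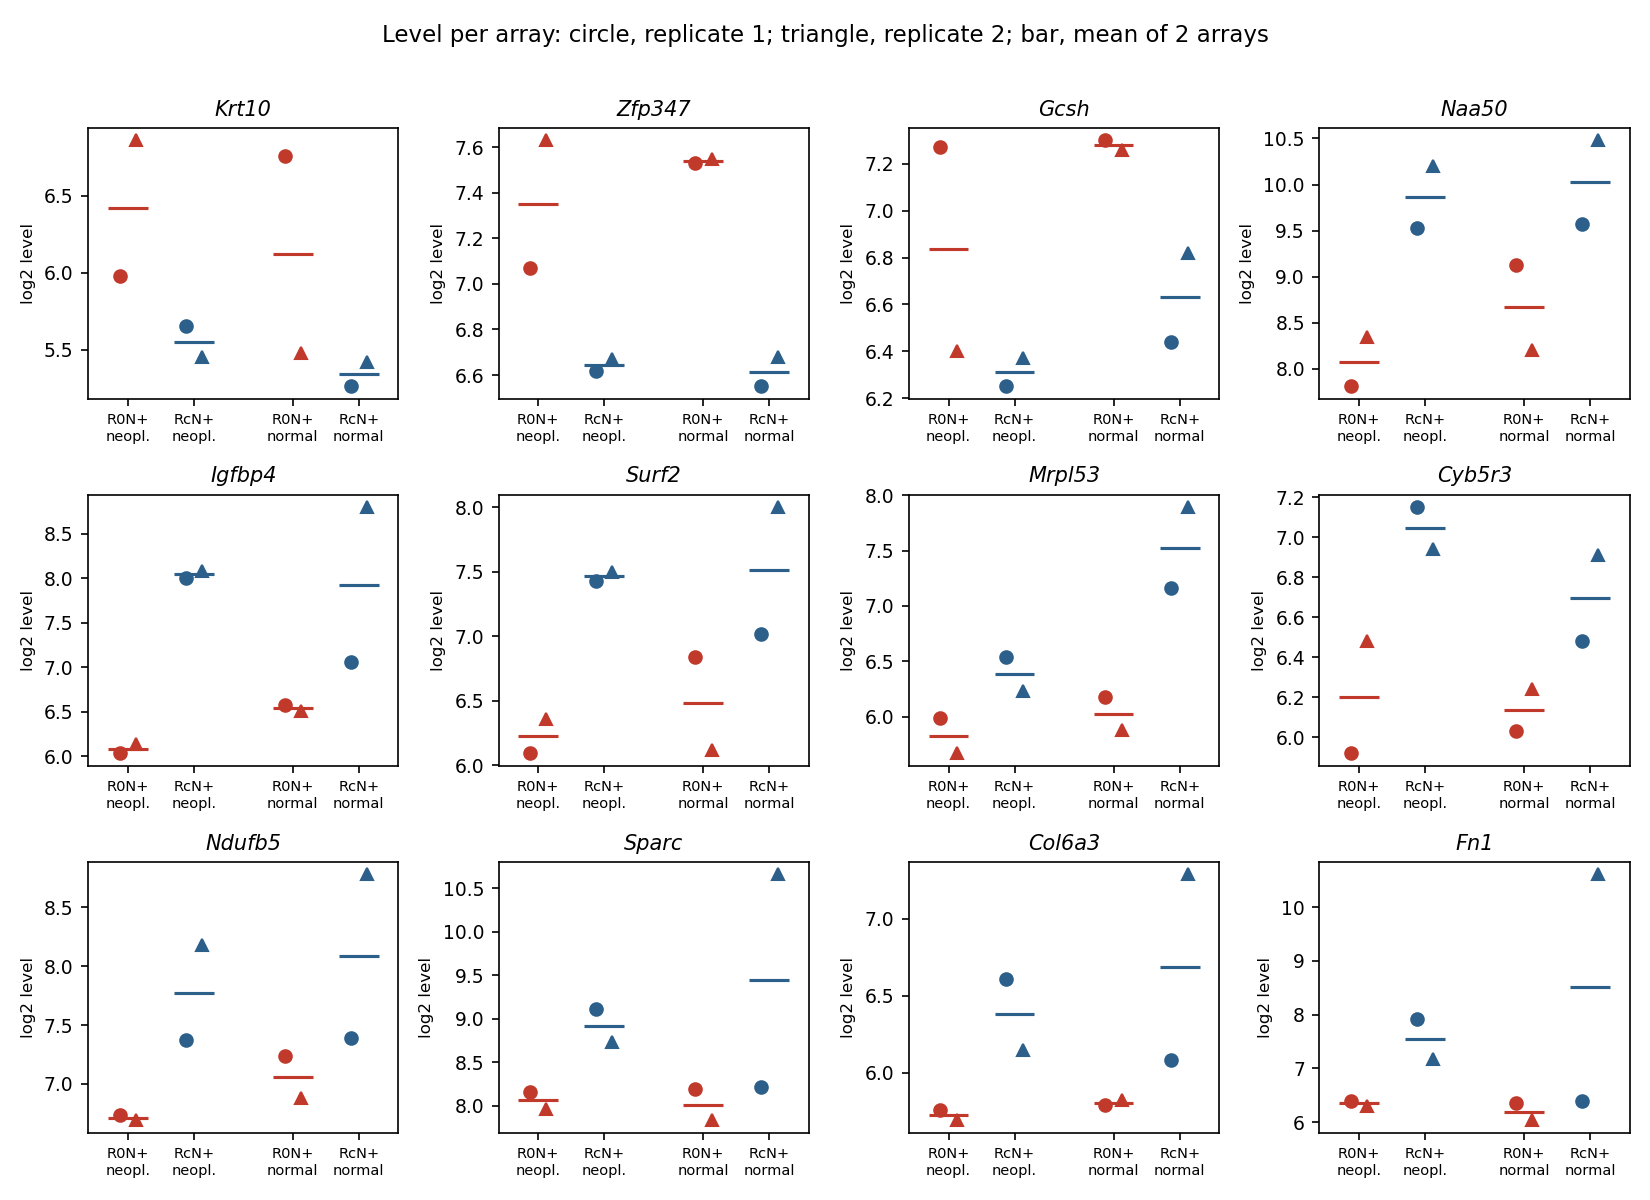
Level (log2) per array of 12 genes, R0N+ in red and RcN+ in blue within neoplasia and adjacent normal tissue, with circles for replicate 1, triangles for replicate 2 and a bar for the mean of 2 arrays. The R0N+ and RcN+ points of a tissue do not overlap in any panel, and the gap is narrowest for Gcsh in neoplasia and for Krt10, Sparc and Fn1 in adjacent normal tissue.

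Genes of riboflavin uptake and cofactor synthesis differed little. Rfk, riboflavin kinase, had 4.74 and 5.21 on R0N+ neoplasia arrays, against 5.27 and 5.54 on RcN+ neoplasia arrays, and in adjacent normal tissue 5.31 and 4.82 on R0N+ arrays, against 4.92 and 5.23 on RcN+ arrays. The groups overlapped in adjacent normal tissue, and the difference of Rfk was -0.22 (SE 0.14), with -0.43 in neoplasia and -0.01 in adjacent normal tissue. The plasma membrane transporters Slc52a2 and Slc52a3 differed by 0.13 (SE 0.13) and 0.01 (SE 0.11), and the mitochondrial carrier Slc25a32 by 0.02 (SE 0.13). The sign of each of these 3 turned under at least 1 alternative, and all 4 genes were measured near the table median. Flad1, the synthase of flavin adenine dinucleotide, and Slc52a1 had no probe set with a single symbol here.

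Enzymes that carry flavin did not lean to one side as a group. Of 71 measured of 80 listed, 16 were higher and 21 lower on R0N+ in both tissues, with a median difference of -0.03, or 0.04 without RcN+ replicate 2, and none passed the test. Cyb5r3, a reductase that uses flavin adenine dinucleotide and passes electrons from NADH to cytochrome b5, was the flavoenzyme with the lowest unadjusted p. It had 5.92 and 6.48 on R0N+ neoplasia arrays, against 7.15 and 6.94 on RcN+ neoplasia arrays. Cyb5r3 had 6.03 and 6.24 on R0N+ adjacent normal arrays, against 6.48 and 6.91 on RcN+ adjacent normal arrays. Its difference was -0.71 (SE 0.17), with no overlap of the diets in either tissue. Ero1a, a flavoenzyme of disulfide formation in the endoplasmic reticulum, differed by -0.51 (SE 0.18). However, RcN+ adjacent normal replicate 1 of Ero1a at 5.73 lay among the R0N+ arrays at 6.18 and 5.69. Sqle, squalene epoxidase of cholesterol synthesis, differed by -1.14 in neoplasia and 0.24 in adjacent normal tissue. Genes of folate and one-carbon metabolism, which includes flavoenzymes, had a median of 0.07, with 7 of 20 measured higher and 3 lower in both tissues, and -0.03 without RcN+ replicate 2.

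Nuclear-encoded subunits of the respiratory chain were mostly lower on R0N+ in both tissues. Of 42 measured, 34 (81.0%) were lower in both tissues and 0 were higher, and the median difference was -0.48, with -0.38 in neoplasia and -0.48 in adjacent normal tissue. None passed the test, and 4 were separated (9.52%, against 2.43% of all genes). Ndufb5, a subunit of complex I, had 6.74 and 6.69 on R0N+ neoplasia arrays, against 7.37 and 8.18 on RcN+ neoplasia arrays. Ndufb5 had 7.24 and 6.88 on R0N+ adjacent normal arrays, against 7.39 and 8.78 on RcN+ adjacent normal arrays. Its difference was -1.05 (SE 0.40), with RcN+ replicate 2 the highest array of each tissue. Uqcrb of complex III differed by -0.91 (SE 0.35) and Cox6a1 of complex IV by -0.64 (SE 0.24). Without RcN+ replicate 2 these differences were -0.50 for Ndufb5, -0.55 for Uqcrb and -0.33 for Cox6a1. The list median was -0.09 without RcN+ replicate 2, -0.81 without RcN+ replicate 1 and -0.07 with control separation as a covariate. The median member of the list lay in the brightest group of genes, in which 52.8% were lower in both tissues and 4.59% separated and lower.

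The lists of glycolysis and fatty acid oxidation were lower at smaller sizes, and that of ribosomal proteins at a larger one. Glycolysis and hypoxia genes had a median of -0.28, with 17 of 26 lower in both tissues and 1 higher. It was -0.22 without RcN+ replicate 2, -0.07 after quantile normalisation and -0.04 with the covariate. Tpi1, triose phosphate isomerase, differed by -1.54 (SE 0.37) and Pkm, pyruvate kinase, by -0.90 (SE 0.23), but RcN+ adjacent normal replicate 1 overlapped the R0N+ arrays in both. Averaged over its 2 probe sets, Tpi1 differed by -1.0. Fatty acid oxidation genes had a median of -0.19 in each tissue, with 14 of 24 lower and 2 higher in both tissues. Etfa, the flavoprotein that collects electrons from acyl-CoA dehydrogenases, differed by -0.69 (SE 0.35), but by -0.23 without RcN+ replicate 2, -0.19 after quantile normalisation and -0.07 with the covariate. The median of the fatty acid oxidation list was 0.07 without RcN+ replicate 2 and 0.08 with the covariate. Cytosolic ribosomal protein genes, abundant in every cell type, had a median of -0.59, with 41 of 49 lower and 0 higher in both tissues. This median was -0.16 without RcN+ replicate 2 and 0.02 with the covariate. The shares lower in both tissues were 65.4% of glycolysis, 58.3% of fatty acid oxidation and 83.7% of ribosomal genes. The median member of each of these lists lay in the brightest group of genes, where this share was 52.8%.

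**Figure D4:**
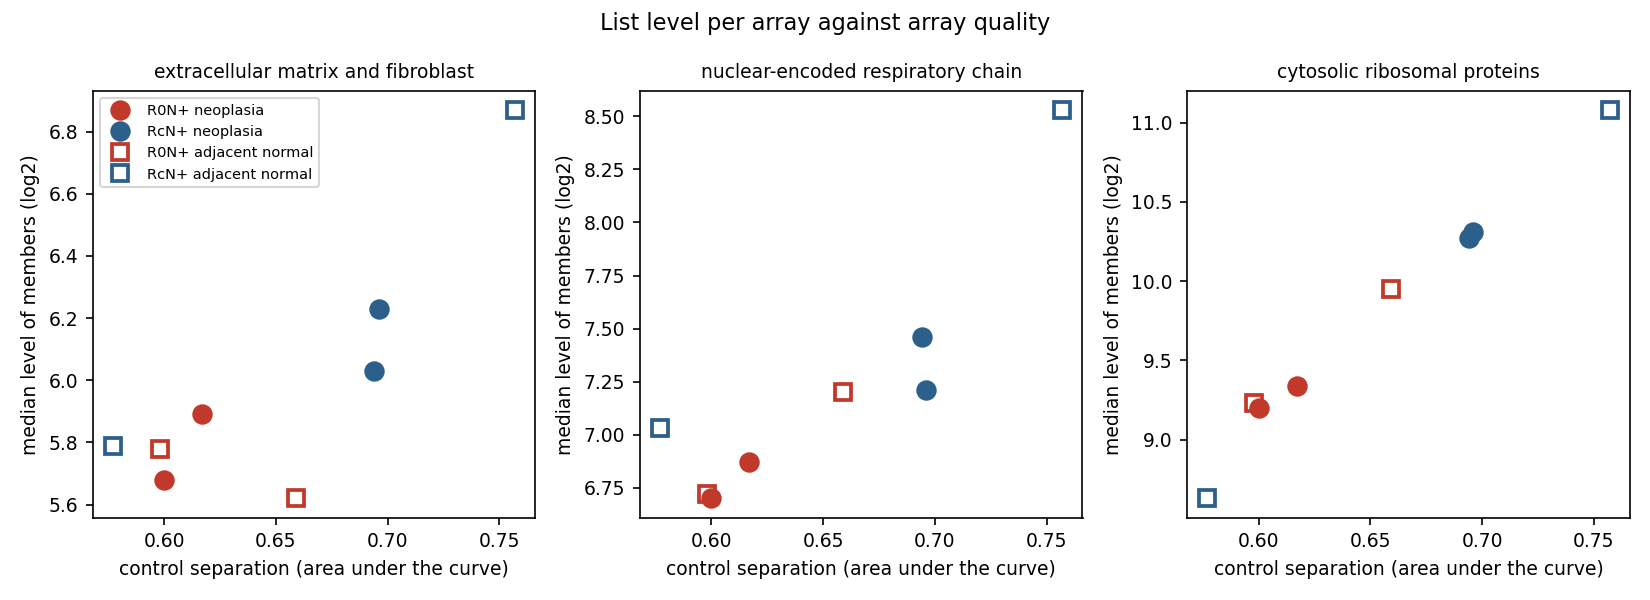
Median level (log2) of 3 gene lists on each array against the array's control separation (area under the curve), R0N+ in red, RcN+ in blue, circles for neoplasia and open squares for adjacent normal tissue. RcN+ adjacent normal replicate 2, at 0.757, is the highest array in all 3 panels, and the 2 RcN+ neoplasia arrays lie above the 2 R0N+ neoplasia arrays.

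Genes of the extracellular matrix and of fibroblasts were lower on R0N+. Of 34 measured, 24 (70.6%) were lower in both tissues and 3 (8.82%) were higher, with a median of -0.50. The median was -0.23 in neoplasia and -0.76 in adjacent normal tissue. In this list 9 genes (26.5%) were separated and lower, against 2.43% of all genes, and 0 were separated and higher. The median member of the list lay in group 4 of the 5 from dim to bright, in which 3.69% of genes were separated and lower. In the brightest group, which held all of the 9 but Mmp2, this share was 4.59%. The 9 were Col1a1, Col1a2, Col3a1, Col6a3, Dcn, Fn1, Mmp2, Sparc and Timp2, of which all but Col6a3 and Sparc were picked out after their values were seen. In adjacent normal tissue RcN+ replicate 1 only just exceeded R0N+ replicate 1 for Fn1 (6.4 against 6.35) and Sparc (8.22 against 8.19). None passed the test.

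Dcn encodes decorin, a proteoglycan that binds collagen fibrils. It had 10.26 and 8.98 on R0N+ neoplasia arrays, against 12.43 and 12.84 on RcN+ neoplasia arrays. Dcn had 10.22 and 10.3 on R0N+ adjacent normal arrays, against 10.47 and 15.78 on RcN+ adjacent normal arrays. The difference was -2.94 (SE 1.03), with a wide gap in neoplasia, whereas RcN+ adjacent normal replicate 1 lay next to the R0N+ arrays. Col6a3, a chain of collagen VI, had 5.76 and 5.69 on R0N+ neoplasia arrays, against 6.61 and 6.15 on RcN+ neoplasia arrays. Col6a3 had 5.79 and 5.82 on R0N+ adjacent normal arrays, against 6.08 and 7.29 on RcN+ adjacent normal arrays. All 4 R0N+ arrays lay within a narrow range and below all 4 RcN+ arrays, and the difference was -0.77 (SE 0.17).

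Sparc, a matrix glycoprotein secreted by fibroblasts, differed by -1.14 (SE 0.39), and fibronectin (Fn1) by -1.75 (SE 0.62). The animal means of Fn1 were 6.27 ± 0.15 on R0N+ and 8.02 ± 1.23 on RcN+ (SD, n = 2 animals each), and RcN+ adjacent normal replicate 2 at 10.61 was far above the other 7 arrays. Without RcN+ replicate 2 the differences were -1.51 for Dcn, -0.58 for Col6a3, -0.63 for Sparc and -0.89 for Fn1. The list median was then -0.21, and it was -0.20 with control separation as a covariate, -0.34 after quantile and -0.39 after cyclic loess normalisation. The 5 fibroblast markers, all of them also members of this list, had a median level of 6.41 to 6.48 on R0N+ arrays and 6.61 to 9.22 on RcN+ arrays. In tissue pieces of this kind, fewer cells of a type and less RNA per cell cannot be told apart.

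Muscle genes were lower as well. Smooth muscle genes had a median of -0.58, with -0.08 in neoplasia and -0.92 in adjacent normal tissue, and 13 of 16 were lower and 0 higher in both tissues. Cnn1, calponin of smooth muscle, had 7.54 and 7.28 on R0N+ neoplasia arrays, against 8.51 and 8.69 on RcN+ neoplasia arrays. Cnn1 had 7.82 and 7.61 on R0N+ adjacent normal arrays, against 8.36 and 12.09 on RcN+ adjacent normal arrays. The diets did not overlap, and the difference of -1.85 (SE 0.70) was -0.88 without RcN+ replicate 2. These values are of the brighter of 2 Cnn1 probe sets, and the mean over both probe sets differed by -0.88 with all animals. Skeletal muscle genes had a median of -0.55, with -0.34 in neoplasia and -0.78 in adjacent normal tissue, and 22 of 33 were lower and 0 higher in both tissues. Acta1, skeletal actin, differed by -1.31 in neoplasia and -1.36 in adjacent normal tissue, with a mean of -1.33 (SE 0.26), although R0N+ replicate 1 at 17.24 exceeded RcN+ replicate 1 at 17.13 in adjacent normal tissue. The medians without RcN+ replicate 2 were -0.13 for smooth and -0.20 for skeletal muscle, and with the covariate -0.08 and -0.05. The shares lower in both tissues were 81.2% of smooth and 66.7% of skeletal muscle genes. The median member of each list lay in the brightest group of genes, where this share was 52.8%.

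Genes of the squamous epithelium did not share a direction between tissues. Of 47 suprabasal differentiation genes measured, 29 were lower in neoplasia and higher in adjacent normal tissue, with medians of -1.01 in neoplasia and 0.42 in adjacent normal tissue, and 11 were lower and 3 higher in both tissues. Krt10 was 1 of these 3 and the only separated member of the list. Basal keratinocyte genes had a median of -0.81 in neoplasia and 0.00 in adjacent normal tissue. Itga6, the integrin that anchors basal cells, differed by -1.52 in neoplasia and -0.35 in adjacent normal tissue. Tp63, the transcription factor of basal squamous cells, differed by -1.71 in neoplasia and 0.11 in adjacent normal tissue. Keratinocyte stress genes had a median of -0.73 in neoplasia and 0.22 in adjacent normal tissue. Over both tissues the medians were -0.18 for suprabasal, -0.59 for basal and -0.16 for stress genes, and without RcN+ replicate 2 they were 0.03, -0.42 and -0.15. With the covariate the suprabasal median was 0.28 and the basal median -0.16.

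The chaperone and antioxidant lists were lower on R0N+ mainly by their neoplasia values. Heat shock and unfolded protein response genes had a median of -0.70 in neoplasia and -0.08 in adjacent normal tissue, with 18 of 27 lower and 1 higher in both tissues. Hsp90b1, a chaperone of the endoplasmic reticulum, differed by -1.86 in neoplasia and -0.13 in adjacent normal tissue. Atf4, a transcription factor of the integrated stress response, was the separated member, with -0.59 in neoplasia and -0.29 in adjacent normal tissue. Over both tissues the median of this list was -0.46, or -0.31 without RcN+ replicate 2 and -0.18 with the covariate. Targets of NRF2 and glutathione genes had a median of -0.56 in neoplasia and -0.07 in adjacent normal tissue, with 23 of 37 lower and 1 higher in both tissues. Their median over both tissues was -0.44, but it was -0.02 without RcN+ replicate 2, -0.04 with the covariate and -0.16 after quantile normalisation. The shares lower in both tissues were 66.7% of the chaperone list and 62.2% of the antioxidant list. The median member of each lay in the brightest group of genes, where this share was 52.8%. Txn1, thioredoxin, had 11.76 and 11.62 on R0N+ neoplasia arrays, against 14.98 and 14.99 on RcN+ neoplasia arrays, and in adjacent normal tissue 14.11 and 12.23 on R0N+ arrays, against 11.73 and 15.03 on RcN+ arrays. The replicates of Txn1 agreed in neoplasia and overlapped between diets in adjacent normal tissue.

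The test of the difference of the diet effect between tissues also called 0 of 22093 genes (0.0%), with a lowest limma adjusted p of 1.0 and 760 genes (3.44%) at an unadjusted p under 0.05. Neoplasia minus adjacent normal values of the diet difference were -1.73 (SE 0.36) for Hsp90b1, -1.54 (SE 0.30) for Cyld, a deubiquitinase that restrains NF-kB signalling, and -3.09 (SE 1.23) for Txn1. Cyld had 2 probe sets, and its diet difference over both tissues was -0.65 on the brighter and -0.35 averaged over both. Lists that pointed to opposite sides in the tissues are thus described and not shown to differ.

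**Figure D5:**
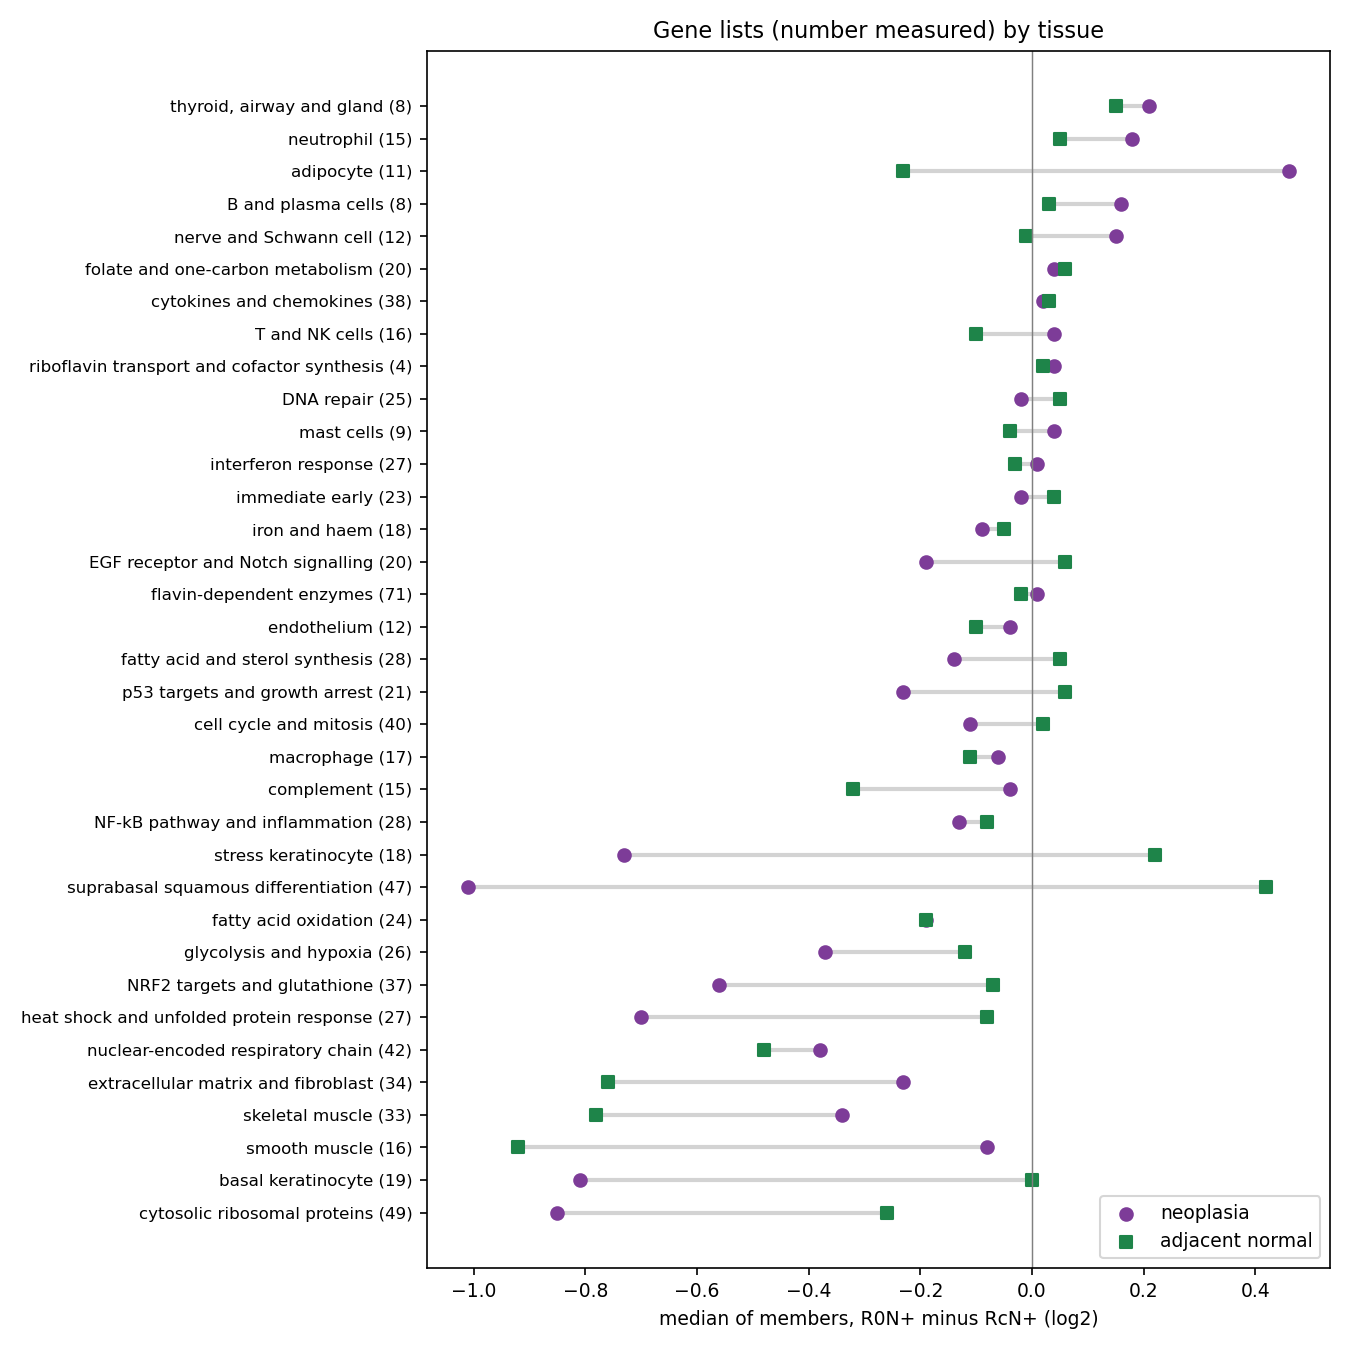
Median R0N+ minus RcN+ difference (log2) of the members of 35 gene lists, with the number measured in parentheses, in neoplasia (purple circles) and adjacent normal tissue (green squares). Ribosomal, respiratory chain, matrix and muscle lists lie below 0 in both tissues, whereas the suprabasal list is at -1.01 in neoplasia and 0.42 in adjacent normal tissue.

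Inflammation genes, the subject named by the series, had small differences as lists, although single members differed more. Of 38 cytokine and chemokine genes, 13 were higher and 8 lower on R0N+ in both tissues, with a median of 0.05 at a median level of 4.99, and -0.01 without RcN+ replicate 2. Cxcl12, a chemokine of stromal cells, had 7.45 and 7.62 on R0N+ neoplasia arrays, against 8.12 and 7.76 on RcN+ neoplasia arrays. Cxcl12 had 7.54 and 7.57 on R0N+ adjacent normal arrays, against 7.65 and 8.16 on RcN+ adjacent normal arrays. It was separated, with a difference of -0.38 (SE 0.11), which was -0.01 after quantile and -0.06 after cyclic loess normalisation. Ccl21, a chemokine of lymphatic vessels and lymph nodes, was picked out after its values were seen. It had 5.02 and 5.12 on R0N+ neoplasia arrays, against 5.89 and 6.34 on RcN+ neoplasia arrays. Ccl21 overlapped between diets in adjacent normal tissue, with 4.83 and 6.09 on R0N+ arrays, against 5.65 and 7.98 on RcN+ arrays. Its difference was -1.20 (SE 0.55), or -0.50 without RcN+ replicate 2. Ccl11, eotaxin, differed by -0.03 in neoplasia and -1.12 in adjacent normal tissue, where RcN+ replicate 2 at 8.26 was far above the other arrays. Csf3, the growth factor of granulocytes, differed by 0.31 (SE 0.10) at a mean level of 3.55, in the dimmest group of genes.

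Genes of the NF-kB pathway had a median of -0.13, with 13 of 28 lower and 5 higher in both tissues. In this list 2 were separated and higher and 2 separated and lower (7.14% each, against 3.4% and 2.43% of all genes). Rel, an NF-kB subunit, had 5.76 and 6.31 on R0N+ neoplasia arrays, against 7.53 and 7.16 on RcN+ neoplasia arrays. Rel had 6.56 and 6.35 on R0N+ adjacent normal arrays, against 6.25 and 7.14 on RcN+ adjacent normal arrays, so the diets overlapped there. Its difference was -0.77 (SE 0.15). Bcl3, an atypical IkB protein, differed by -0.42 (SE 0.12). The median of the NF-kB list was -0.03 without RcN+ replicate 2 and -0.04 with the covariate.

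Complement genes lay higher, at a median level of 6.39, with 8 of 15 lower and 3 higher on R0N+ in both tissues. Their median was -0.12, or -0.08 without RcN+ replicate 2, but it was -1.01 over members at or above the table median. No value of the latter without that animal is given. C3, C5 and Cfi, all with mean levels below the table median, were higher, by 0.20 (SE 0.14), 0.10 (SE 0.12) and 0.14 (SE 0.16). The median member of the list lay in the brightest group of genes, in which 52.8% were lower in both tissues. C1s, a protease of the classical complement pathway, had 5.29 and 5.77 on R0N+ neoplasia arrays, against 6.58 and 6.72 on RcN+ neoplasia arrays. C1s had 5.65 and 5.82 on R0N+ adjacent normal arrays, against 5.98 and 9.27 on RcN+ adjacent normal arrays. It was the separated member of the list, with a difference of -1.51 (SE 0.62), and RcN+ adjacent normal replicate 2 again stood far above. C1r, the protease that activates C1s, differed by -1.21 (SE 0.45), C4b by -1.30 (SE 0.57), C4a by -1.01 (SE 0.40) and Serping1, the inhibitor of both proteases, by -1.21 (SE 0.57). Without RcN+ replicate 2 the difference was -0.65 for C1s and -0.58 for C1r. C1r, C4a and C1s were named as the members of lowest unadjusted p in the list, and C4b and Serping1 were picked out after their values were seen. C4a and C4b are near-identical copies whose signals may be shared, and none of the list passed the test.

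Macrophage genes had a median of -0.11, or -0.05 without RcN+ replicate 2, with 10 of 17 lower and 3 higher in both tissues, and Mrc1, the mannose receptor, differed by -0.32 (SE 0.16), or -0.14 without that animal. Neutrophil genes had a median of 0.12, or 0.10 without RcN+ replicate 2, at a level of 4.41. In both tissues 9 of 15 were higher and 0 lower. Their median member lay in the dimmest group of genes, in which 51.6% were higher in both tissues. The defining markers Mpo, Camp and Ngp were below the table median on every array. T and NK cell genes had a median of 0.04 with and without RcN+ replicate 2, and interferon response genes had -0.02 with it and 0.04 without it. Cpa3, a mast cell protease, had 5.58 and 5.82 on R0N+ neoplasia arrays, against 5.89 and 6.84 on RcN+ neoplasia arrays. Cpa3 had 5.52 and 5.47 on R0N+ adjacent normal arrays, against 6.0 and 6.64 on RcN+ adjacent normal arrays, and the difference was -0.74 (SE 0.30). It was -0.34 without RcN+ replicate 2 and -1.14 without RcN+ replicate 1. The whole mast cell list had 3 members higher and 3 lower in both tissues, and a median of -0.01, or -0.07 without RcN+ replicate 2. Adipocyte genes had a median of 0.46 in neoplasia and -0.23 in adjacent normal tissue. A single array carried the value in neoplasia, since R0N+ replicate 1 had a list level of 6.89 there and the other 7 arrays had 5.15 to 5.55. Adipoq, adiponectin, was named as 1 of the 3 members of lowest unadjusted p in the list. It had 8.36 and 4.85 on R0N+ neoplasia arrays, against 4.5 and 4.8 on RcN+ neoplasia arrays. The adipocyte median over both tissues was 0.12, -0.02 without R0N+ replicate 1 and 0.17 without RcN+ replicate 2.

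Proliferation genes differed little on average. Of 40 cell cycle genes, 13 were lower and 6 higher on R0N+ in both tissues, with a median of -0.06, or -0.08 without RcN+ replicate 2. Top2a, the topoisomerase of dividing cells, had 5.82 and 5.85 on R0N+ neoplasia arrays, against 6.94 and 6.32 on RcN+ neoplasia arrays. Top2a had 5.86 and 5.71 on R0N+ adjacent normal arrays, against 5.96 and 5.9 on RcN+ adjacent normal arrays, a small gap, and the mean difference was -0.47 (SE 0.16). Birc5, survivin, differed by 0.83 in adjacent normal tissue and -0.03 in neoplasia. DNA repair genes had a median of 0.01 with and without RcN+ replicate 2, with 8 of 25 higher and 6 lower in both tissues.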

How the data were processed

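The authors deposited log2 values, 1 per probe set and array, and the submitters' processing notes name RMA and Affymetrix Expression Console (versions and build: not given in the sources used here). RMA corrects background, normalises arrays and summarises probes, and the RNA came from fixed, paraffin-embedded tissue amplified before labelling, per the labels' protocols. Of 70580 probe sets, 23446 carried a single symbol in the platform annotation, 505 several and 46629 none. Symbols were updated through Entrez IDs (22077 matched). The probe set of highest mean was kept for each gene with several. Diet was fitted with limma 3.58.1 (lmFit, eBayes) in R 4.3.3 on the mean of both tissues per animal, so tissue cancels and 2 residual degrees of freedom remain. The fit was tested on simulated data. The tissue difference was fitted on neoplasia minus adjacent normal values per animal. Array number limits the precision.

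Genes were named if both R0N+ arrays of each tissue lay beyond both RcN+ arrays, with a mean difference of at least 0.5 in each and 1 diet mean at or above the table median. The 15 of lowest unadjusted p per direction were taken, without predicted or miRNA symbols, plus up to 3 members of lowest p per list and the riboflavin genes, and a selection is printed. Members, lists and tests were chosen with earlier results of these data known. The 35 lists held 919 entries, of which 858 were measured. Both arrays of an animal carry the same animal code in the labels, and their residuals had a consensus correlation of 0.034. Alternatives covered normalisation, dim genes, probe set choice, the replicate block, array quality and each animal and tissue.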

Additional observations from a re-analysis of the deposited data

How the results depend on the processing

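None of the 14 alternatives called a gene for diet, and none of the 12 that could be fitted called a tissue difference. At an unadjusted p under 0.05, against 346 higher and 494 lower genes, the animal as a random replicate block gave 501 and 556 genes, and no replicate block gave 549 and 601, so the block changed no call. Genes at or above the table median gave 67 and 285, an intensity trend 581 and 324, neoplasia alone 943 and 2026, and adjacent normal alone 111 and 84. Leaving out an animal gave 189 to 728 higher and 112 to 2327 lower genes, with 728 and 2327 without RcN+ replicate 1, 220 and 403 without RcN+ replicate 2, 309 and 314 without R0N+ replicate 1 and 189 and 112 without R0N+ replicate 2. Separated genes numbered 159 higher and 423 lower at or above the table median, 603 and 670 after quantile and 588 and 667 after cyclic loess normalisation, 5750 higher and 5127 lower in neoplasia alone, 2614 and 1940 in adjacent normal alone, and 2057 to 5281 and 1439 to 4386 without an animal, since fewer arrays must then be apart. After quantile normalisation 287 of the 752 higher and 280 of the 537 lower separated genes remained, and after cyclic loess 311 and 273. The block, trend and covariate do not alter this count. Of 91 genes checked, 11 turned sign in 20 of 1264 values, and the cause was not tested. Many of these values could not turn. The random block, no block, the cut at the table median and the intensity trend leave a gene's estimate unchanged. A separated gene keeps its sign without any animal and in either tissue alone. Slc52a2 was -0.03 with the covariate. Slc52a3 was -0.02 after quantile and -0.01 after loess normalisation, -0.03 without RcN+ replicate 2, -0.05 without R0N+ replicate 1, 0.08 without R0N+ replicate 2 and -0.14 in neoplasia alone. Slc25a32 was -0.05 after quantile and -0.04 after loess normalisation, -0.18 with the covariate, -0.10 without RcN+ replicate 2, -0.01 without R0N+ replicate 2, 0.15 without RcN+ replicate 1 and -0.26 in adjacent normal alone. In adjacent normal alone Sqle was 0.24, Cyld 0.12, Akr1b8 0.42, Slc7a11 0.14, Trim29 0.18, Tp63 0.11 and Adipoq -0.27, and in neoplasia alone Birc5 was -0.03. Of 532 list medians under alternatives, 98 moved by more than the spread between animals. The dimmest genes have little signal over background, which limits what a small difference there can show.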

Other observations

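Apart from the lists above, a few separated genes stood out by their role and were chosen after their values were seen. Amt, the aminomethyltransferase that works with Gcsh in the glycine cleavage system, was separated and higher, with a difference of 0.22 (SE 0.13). Its nearest R0N+ and RcN+ arrays were barely apart, with 5.32 against 5.28 in neoplasia and 5.45 against 5.4 in adjacent normal tissue. The other members of that system were not separated. Dld, dihydrolipoamide dehydrogenase, differed by -0.71 (SE 0.44) and Gldc, the glycine decarboxylase, by 0.15 (SE 0.11). Gstp1, a glutathione transferase that marks preneoplastic foci of the rat liver, was separated and lower, with a difference of -0.57 (SE 0.30). Myd88, the adaptor of Toll-like receptors, and Nfkbib, an NF-kB inhibitor, differed by -0.39 (SE 0.20) and -0.45 (SE 0.14). The other separated members of the NF-kB list, Icam1 and Ikbkg, were higher, by 0.15 (SE 0.10) and 0.20 (SE 0.10). Egr2, an early response transcription factor, differed by 0.40 (SE 0.16). Amt and Egr2 were also among the members of lowest unadjusted p in their lists. None of these passed the limma test.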
